A study of Mus musculus with 20 samples.

Results

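Flow sorting of mouse bone marrow names cells by the proteins on their surface. This report follows the RNA of 9 genes whose proteins draw those gates: Kit, Ly6a (which encodes Sca-1), Cd34, Slamf1 (CD150), Cd48, Fcgr3 and Fcgr2b (the FcγRIII and FcγRII receptors), Procr (EPCR) and Flt3. They were chosen by name from the 24315 genes of the deposited tables, and all 9 are listed in both tables. The question was whether the RNA of the gate markers matched the identity under which the cells were sorted, in each library. LSK cells (Lin-Sca1+Kit+) hold the stem cells and the earliest progenitors, and MEP cells (Lin-Sca1-Kit+CD34-FcγRII/III low or negative) are the shared progenitors of erythroid cells and megakaryocytes.

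RNA was measured in 20 libraries, 10 of LSK and 10 of MEP, from C57BL/6 mice. Each cell type had 3 WT, 3 Dnmt3a-/-, 2 Bcor-/- and 2 Bcor-/-Dnmt3a-/- (double knockout) libraries. The study gives an equal number of mice for each genotype in its LSK sequencing, which differs from the Bcor-/- and double knockout libraries here, and no further library was analysed here. Per the study, the mutants were conditional alleles deleted by Mx1-Cre, an interferon-inducible recombinase, after pIpC induction. Double knockout mice developed an acute erythroid leukemia. The study reports that Dnmt3a was deleted only in part in Dnmt3a-/- mice, and fully only in leukemic double knockout mice. As background, Mx1-Cre acts in blood-forming cells and in other interferon-responsive tissues. The study describes the double knockout cells of its RNA comparisons as leukemic. The labels give neither stage nor age of the single mice, and the deletion was not in one cell type alone. The LSK and the MEP library of a replicate carry the same mouse name, and Bcor-/- replicate 1 names 2 mice.

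The values are FPKM, fragments scaled to transcript length and library size, so levels may be compared between genes. Read counts are not given, so depth is unknown. Replicates of a group correlated across genes with r of at least 0.971, except the double knockout libraries, where r was 0.849 in LSK and 0.815 in MEP. The LSK and MEP libraries of double knockout replicate 1 correlated with each other at r = 0.971, against 0.793 to 0.882 for the other pairs of libraries from 1 label. The whole-gene FPKM of the targeted genes do not separate deleted from retained exons: Bcor was at 29.5 to 32.4 FPKM in WT LSK, at 22.4 and 23.2 in Bcor-/- LSK and at 24.0 and 37.4 in double knockout LSK. In the LSK library labelled Bcor-/-Dnmt3a-/- replicate 2 Bcor thus lay above every WT value, so genotypes are given below as labelled and were not checked by RNA. Dnmt3a was at 16.1 to 19.9 FPKM in WT LSK, at 11.3 to 16.9 in Dnmt3a-/- LSK and at 10.4 and 10.9 in double knockout LSK.

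As background, Kit is the receptor of stem cell factor and marks most early progenitors. Sca-1 is a small protein held on the outer membrane by a lipid anchor, and its presence separates LSK from the Kit+ myeloid progenitors. Within LSK, cells low in CD34 and without FLT3 hold the long-term stem cells, CD34+ FLT3- cells the short-term stem cells, and CD34+ FLT3+ cells the multipotent progenitors. CD150 without CD48, and EPCR, enrich for long-term stem cells. Below LSK, CD34 and FcγRII/III part the MEP (low in both) from the common myeloid progenitor and from the granulocyte-monocyte progenitor, which is high in both.

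Sca-1 is the marker on which the LSK and MEP gates are opposed, and the MEP gate alone also excludes CD34 and requires FcγRII/III to be low or absent. In WT the RNA of the 4 genes behind these, Ly6a, Cd34, Fcgr3 and Fcgr2b, was higher in LSK. Of the other 5, which these gates either share (Kit) or do not use, 4 were higher in LSK too. Kit, Ly6a, Cd34, Cd48, Fcgr3, Fcgr2b, Procr and Flt3 were each higher in all 3 WT LSK libraries than in all 3 WT MEP libraries, where 44.3% of 11709 genes were, and Slamf1 was not. In WT LSK the order of levels ran from Cd34 (583 ± 57.8 FPKM, SD, n = 3) through Flt3 (219 ± 25.8), Kit (162 ± 13.1), Cd48 (127 ± 24.6) and Ly6a (65.5 ± 5.43) to a group of 3 genes, Procr (27.9 ± 10.3), Fcgr3 (26.6 ± 14.5) and Fcgr2b (21.3 ± 8.59), and last Slamf1 (3.25 ± 0.77). The ranges of neighbours in this order did not overlap, except among Procr, Fcgr3 and Fcgr2b. In WT MEP Kit led (81.1 ± 3.58 FPKM, n = 3), followed by Cd48 (33.6 ± 11.7), Cd34 (30.0 ± 28.1) and Flt3 (14.0 ± 6.79). From Cd48 on, neighbours in this order overlapped. Slamf1 (2.72 ± 1.31), Fcgr2b (2.44 ± 1.23) and Fcgr3 (2.41 ± 1.85) lay below the range of Flt3 and overlapped one another.

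**Figure D1:**
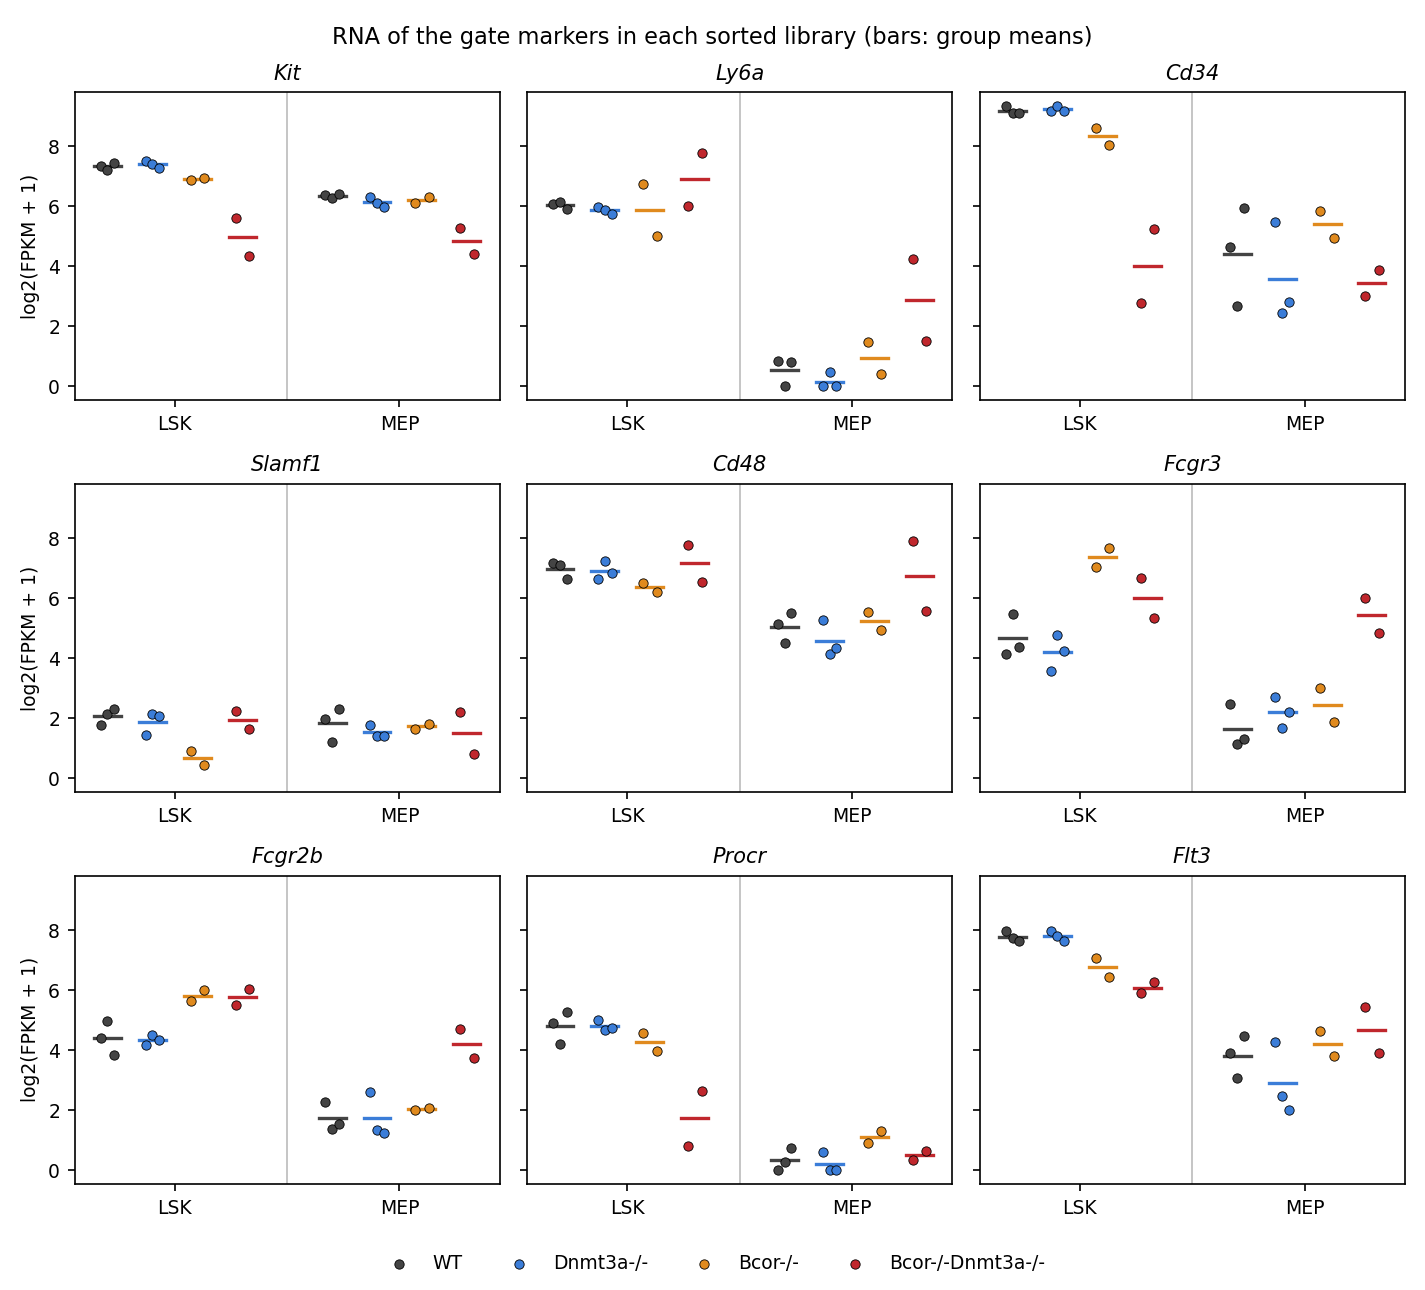
Level of each gate marker as log2(FPKM + 1) in every library, with LSK on the left and MEP on the right of each panel; points are libraries coloured by genotype and bars are group means. Ly6a stays high in the 10 LSK libraries, while Cd34, Procr, Kit and Flt3 drop in the 2 double knockout LSK libraries and Fcgr3 and Fcgr2b are raised in double knockout MEP.

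Ly6a gave the clearest split between the sorts. In LSK, Ly6a was at 66.0, 70.7 and 59.8 FPKM in WT, at 62.6, 57.4 and 52.7 in Dnmt3a-/-, at 107 and 31.1 in Bcor-/-, and at 63.5 and 220.2 in double knockout libraries. In MEP it was at 0.79, 0 and 0.75 FPKM in WT, at 0, 0.39 and 0 in Dnmt3a-/-, at 1.80 and 0.33 in Bcor-/-, and at 17.8 and 1.87 in double knockout libraries. The lowest LSK library (31.1 FPKM) stood above the highest MEP library (17.8 FPKM), so the cell types did not overlap over 10 replicates each. In 3 MEP libraries Ly6a was listed at 0, which in these tables can be a failed estimate. Double knockout MEP replicate 1 stood out among the MEP libraries, and Ly6a passed the filter on low values in MEP through the double knockout libraries alone. The transcript of Ly6a shares 19.0% of its 50-base words with other genes, Ly6c1 among them, so that its reads could be split between near copies.

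Kit was higher in LSK than in MEP in 9 of 10 replicates. In LSK, Kit was at 164, 148 and 174 FPKM in WT, at 184, 171 and 155 in Dnmt3a-/-, at 118 and 123 in Bcor-/-, and at 47.7 and 19.4 in double knockout libraries. In MEP it was at 82.9, 77.0 and 83.5 FPKM in WT, at 77.9, 68.6 and 62.7 in Dnmt3a-/-, at 67.6 and 79.0 in Bcor-/-, and at 38.1 and 20.2 in double knockout libraries. Both gates require Kit protein, and the Kit RNA of the double knockout libraries lay below every other library in both cell types. Outside the double knockout, the LSK libraries lay above the MEP libraries with no overlap, and in double knockout replicate 2 the LSK and MEP values were almost equal.

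Cd34, a sialomucin, was the most abundant of the 9 in each LSK library outside the double knockout. In LSK, Cd34 was at 649.7, 551 and 548 FPKM in WT, at 573, 650.1 and 581 in Dnmt3a-/-, at 391 and 265 in Bcor-/-, and at 5.87 and 37.3 in double knockout libraries. In MEP, whose gate is CD34-, it was at 23.9, 5.43 and 60.6 FPKM in WT, at 44.1, 4.46 and 6.08 in Dnmt3a-/-, at 56.9 and 30.0 in Bcor-/-, and at 7.02 and 13.8 in double knockout libraries. Both double knockout LSK values fell within the range of WT MEP. Relative to their level, the MEP libraries of WT and of Dnmt3a-/- spread more widely than the LSK libraries of the same mice (30.0 ± 28.1 FPKM against 583 ± 57.8 in WT and 18.2 ± 22.5 against 601 ± 42.3 in Dnmt3a-/-, SD, n = 3).

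Flt3, the cytokine receptor of the multipotent progenitors, also separated the sorts in every genotype. In LSK, Flt3 was at 247, 213 and 197 FPKM in WT, at 248, 223 and 196 in Dnmt3a-/-, at 135 and 85.8 in Bcor-/-, and at 58.4 and 76.2 in double knockout libraries. In MEP it was at 13.8, 7.35 and 20.9 FPKM in WT, at 18.2, 4.55 and 3.0 in Dnmt3a-/-, at 23.7 and 12.8 in Bcor-/-, and at 42.0 and 13.9 in double knockout libraries. The lowest LSK library (58.4 FPKM) was above the highest MEP library (42.0 FPKM), both from double knockout replicate 1.

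Procr, the protein C receptor, was near the floor in MEP. In LSK, Procr was at 28.8, 17.2 and 37.6 FPKM in WT, at 30.9, 24.4 and 25.5 in Dnmt3a-/-, at 22.6 and 14.5 in Bcor-/-, and at 0.76 and 5.21 in double knockout libraries. In MEP the libraries ranged from 0 to 1.44 FPKM, with 3 listed at 0, and Procr did not reach the mean of 1 FPKM required for testing there. The double knockout LSK library of replicate 1 lay inside the MEP range.

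Cd48, a SLAM-family receptor found on most progenitors below the stem cell, was high in LSK in each genotype. In LSK, Cd48 was at 143, 138 and 98.5 FPKM in WT, at 99.5, 151 and 113 in Dnmt3a-/-, at 90.3 and 73.3 in Bcor-/-, and at 219.8 and 92.8 in double knockout libraries. In MEP it was at 34.3, 21.5 and 45.0 FPKM in WT, at 37.7, 16.7 and 19.5 in Dnmt3a-/-, at 45.1 and 29.6 in Bcor-/-, and at 238 and 46.2 in double knockout libraries. Double knockout replicate 1 held the highest value of both cell types, and replicate 2 lay close to the other genotypes. Slamf1, the companion of Cd48 in the SLAM code, was low throughout and did not separate the sorts: LSK libraries ranged from 0.35 to 3.94 FPKM and MEP libraries from 0.74 to 3.90 FPKM. The 2 lowest Slamf1 values in LSK, 0.87 and 0.35 FPKM, were those of the Bcor-/- libraries.

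Fcgr3 and Fcgr2b encode an activating and an inhibitory low-affinity IgG receptor, which the antibody of the FcγRII/III gate reads together. In LSK, Fcgr3 was at 16.6, 43.2 and 19.9 FPKM in WT, at 10.9, 26.5 and 17.9 in Dnmt3a-/-, at 131 and 204 in Bcor-/-, and at 101 and 39.8 in double knockout libraries. In MEP it was at 4.54, 1.21 and 1.49 FPKM in WT, at 5.46, 2.18 and 3.64 in Dnmt3a-/-, at 7.07 and 2.71 in Bcor-/-, and at 63.9 and 27.9 in double knockout libraries. The 2 double knockout MEP libraries thus stood above each of the other 8 MEP libraries. Of the 6 WT and Dnmt3a-/- LSK libraries, replicate 1 exceeded 6 and replicate 2 exceeded 5. Fcgr2b was at 13.2 to 30.3 FPKM in the 6 WT and Dnmt3a-/- LSK libraries, at 48.2 and 62.6 in Bcor-/- LSK, and at 44.2 and 64.8 in double knockout LSK. In MEP, Fcgr2b was at 1.37 to 5.11 FPKM in the 8 libraries outside the double knockout and at 25.0 and 12.3 in the double knockout libraries. For Fcgr2b the double knockout MEP libraries thus also stood above the other MEP libraries, but they did not exceed the range of WT and Dnmt3a-/- LSK. The transcripts of Fcgr3 share 9.6% of their 50-base words with Fcgr2b, and reads from those stretches cannot be told apart.

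The plot of Cd34 against Fcgr3 puts the axes of the MEP gate side by side. WT and Dnmt3a-/- LSK libraries lay at 548 to 650.1 FPKM of Cd34 and 10.9 to 43.2 of Fcgr3, Bcor-/- LSK libraries at 265 and 391 of Cd34 and 131 and 204 of Fcgr3, and the 8 MEP libraries outside the double knockout at up to 60.6 of Cd34 and up to 7.07 of Fcgr3. The 4 double knockout libraries, LSK and MEP alike, lay at 5.87 to 37.3 FPKM of Cd34, inside the range of the MEP libraries, and at 27.9 to 101 FPKM of Fcgr3, above that range and overlapping WT LSK.

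**Figure D2:**
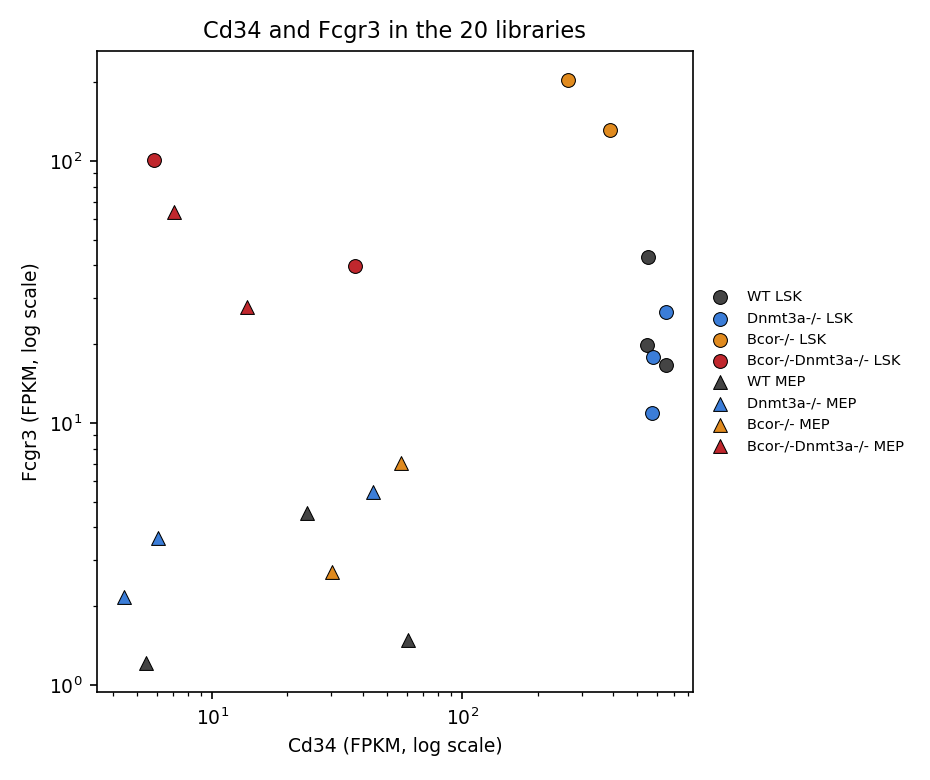
Cd34 against Fcgr3 in FPKM on log axes, with circles for LSK and triangles for MEP, coloured by genotype, 1 point per library. The 4 double knockout points lie at 5.87 to 37.3 FPKM of Cd34 and 27.9 to 101 FPKM of Fcgr3, apart from the other LSK points at 265 to 650.1 FPKM of Cd34 and from the other MEP points at 1.21 to 7.07 FPKM of Fcgr3.

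Across the 8 replicates that are not double knockout, every LSK library lay above every MEP library for 8 of the 9 markers, where 31.4% of the 11709 genes tested across both tables did so. With the double knockout included, this held for 2 of the 9, Ly6a and Flt3, against 6.18% of genes. The tables may have been scaled separately, and the median gene differed between LSK and MEP of 1 replicate by 0.10 to 0.20 on the log2 scale, so these counts are descriptions without a test. Ranks within a library do not depend on that scale. In WT, Ly6a ranked at the 94.3 to 95.2 percentile of genes in LSK and at 21.8 to 55.7 in MEP, Cd34 at 99.7 to 99.8 and 67.9 to 93.8, Flt3 at 99.0 to 99.2 and 70.5 to 82.1, and Kit at 98.3 to 98.8 and 94.8 to 95.8.

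**Figure D3:**
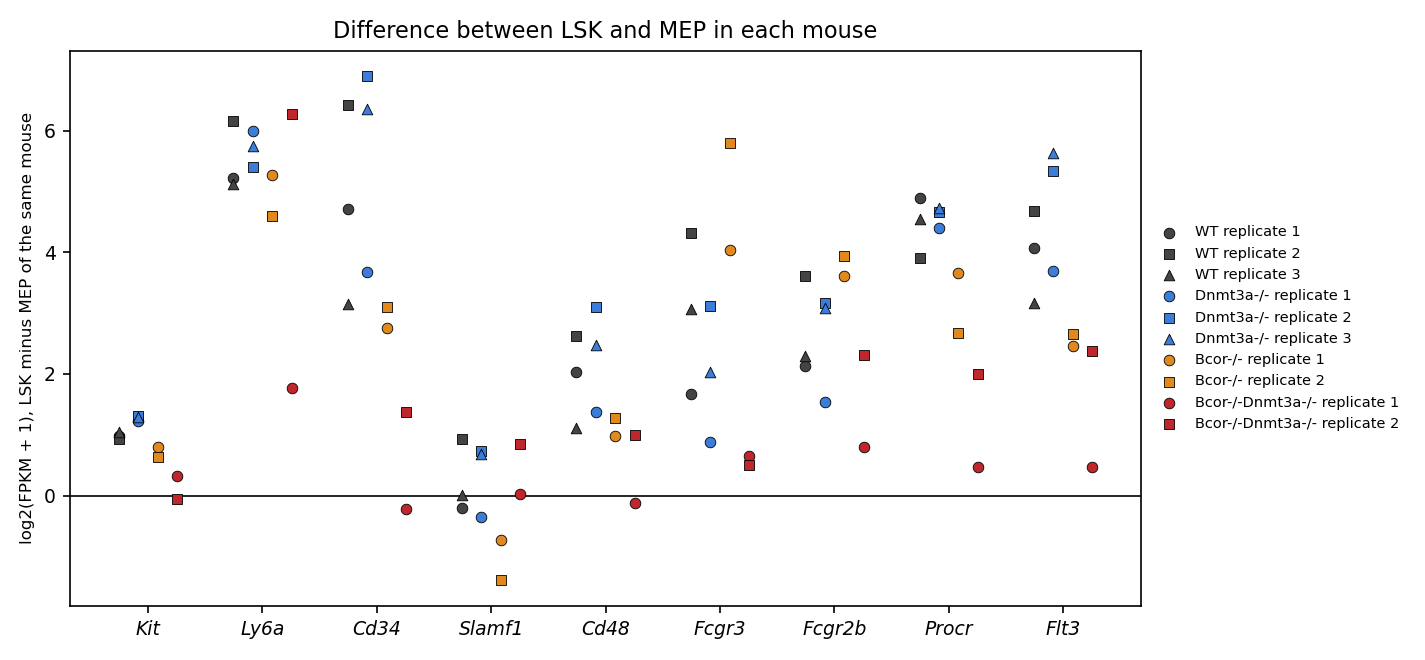
Difference in log2(FPKM + 1) between the LSK and the MEP library of 1 replicate, for each marker; symbols are replicates and colours genotypes, and the line marks no difference. For Ly6a the differences run from 1.77 to 6.27, while for Cd34 they run from 2.76 to 6.90 outside the double knockout and are -0.22 and 1.37 in it.

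A ratio to Kit within each library, as a difference of log2(FPKM + 1), cancels a scale of the table for genes well above 1 FPKM, though not for those near 0, and asks how the other markers stood relative to the marker that both gates share. The ratio was formed for 8 markers and tested with a two-sided exact sign-flip test over 10 replicates, whose smallest p is 0.00195. Ly6a and Procr did not reach the mean of 1 FPKM in MEP outside the double knockout and enter through the LSK libraries where they are high, so their values are descriptions. Of the other 6, the ratio of 5 was higher in LSK than in MEP at an unadjusted p below 0.05, where 12.3% of 10274 genes that reached that mean in both tables were (15.3% of all 11708 genes). Ly6a differed by 4.31 ± 1.23 on the log2 scale (SD, n = 10 replicates) and Procr by 2.75 ± 1.09, each higher in LSK in 10 of 10, and no test is given for them. Cd34 differed by 2.98 ± 1.98 (9 of 10, exact p = 0.00391) and Flt3 by 2.61 ± 1.25 (10 of 10, exact p = 0.00195). The Fc receptors differed by less, Fcgr2b by 1.80 ± 1.0 (10 of 10, exact p = 0.00195) and Fcgr3 by 1.76 ± 1.72 (9 of 10, exact p = 0.00586), and Cd48 by 0.74 ± 0.74 (9 of 10, exact p = 0.0176). For genes near 0 in MEP the size rests on the pseudocount: at 0.1 FPKM the difference was 4.47 for Procr and 5.92 for Ly6a. The ratio of Slamf1 was lower in LSK, by -0.79 ± 0.86 (lower in 9 of 10, exact p = 0.0254), a direction found at that threshold in 69.9% of those genes. The Slamf1 result was lost on leaving out any of 5 single replicates (exact p = 0.0508 for each) and with the median gene in place of Kit (exact p = 0.582). The 5 higher ones stayed below 0.05 when any 1 replicate, or both double knockout mice, were left out. In an unpaired permutation test Cd48 (p = 0.22), Fcgr3 (p = 0.0735) and Slamf1 (p = 0.0766) did not pass.

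The double knockout replicates differed from each other in these ratios. In replicate 1 the LSK ratio exceeded the MEP ratio by 1.46 for Ly6a, 0.48 for Fcgr2b, 0.34 for Fcgr3, 0.16 for Procr and 0.15 for Flt3, and it was lower by -0.54 for Cd34, -0.43 for Cd48 and -0.29 for Slamf1. In replicate 2 it was higher for all 8, from Ly6a (6.33), Flt3 (2.44), Fcgr2b (2.37), Procr (2.05) and Cd34 (1.43) to Cd48 (1.05), Slamf1 (0.91) and Fcgr3 (0.56). Counting raw levels with a pseudocount of 1 FPKM, 1 of 9 markers in replicate 1 and 5 of 9 in replicate 2 were at least 2-fold higher in LSK, against 6 to 8 of 9 in the other replicates. Over all 11709 genes the share was 1.16% in replicate 1, 20.2% in replicate 2 and 17.1% to 25.0% in the other replicates, so the low count in replicate 1 was not particular to the markers.

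Genotypes were compared within each table with limma on log2(FPKM + 1), and a gene was called at a Benjamini-Hochberg adjusted p under 0.05 over all tested genes and a fold change above 1.5. Fold changes are on that scale and understate the change of low genes, and with bulk RNA fewer cells of a type and less RNA per cell cannot be told apart. In LSK of double knockout against WT, 5 of the 9 markers were called, against 23.7% of 11952 genes. Cd34 was 35.9-fold lower (log2 fold change -5.17 ± 0.56, SE, adjusted p = 0.000252, 2 against 3 libraries), Procr 8.33-fold lower (-3.06 ± 0.49, adjusted p = 0.00185), Kit 5.16-fold lower (-2.37 ± 0.29, adjusted p = 0.000493) and Flt3 3.23-fold lower (-1.69 ± 0.21, adjusted p = 0.000478). For each of these 4 both double knockout libraries lay below all 3 WT libraries. Fcgr2b was 2.58-fold higher (1.37 ± 0.31, adjusted p = 0.00963). Fcgr3 had a log2 fold change of 1.35 ± 0.51 (adjusted p = 0.0803), Ly6a of 0.85 ± 0.55 (adjusted p = 0.277), Cd48 of 0.19 ± 0.34 (adjusted p = 0.707) and Slamf1 of -0.13 ± 0.31 (adjusted p = 0.785), and these were not called.

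The 4 lower markers kept their calls under every alternative tried, each library left out included. The call of Fcgr2b was lost when the fit held the compared genotypes alone (adjusted p = 0.0679, where 1702 of 12082 genes were called) and with 1 variance per genotype (adjusted p = 0.227, where 1018 of 11952 were), with the same fold change. Without double knockout replicate 1 the log2 fold change of Cd34 was -3.93 and without replicate 2 it was -6.41. The call of Fcgr3 turned on single libraries. Without WT replicate 2, the WT library with 43.2 FPKM, the log2 fold change was 1.75 (adjusted p = 0.0363), and without double knockout replicate 2 it was 2.01 (adjusted p = 0.0176). Ly6a reached a call without double knockout replicate 1 (1.74, adjusted p = 0.0155) and was at -0.042 without replicate 2. Cd48 was at -0.43 without replicate 1 and reached a call without replicate 2 (0.81, adjusted p = 0.0384).

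The stretches before the start sites of the 4 genes that fell together are shown as they stand in RefSeq for GRCm38.p6, 250 bases each in the direction of transcription, for Kit (chr5:75574737-75574986, plus strand), Cd34 (chr1:194938571-194938820, plus strand), Procr (chr2:155750967-155751216, plus strand) and Flt3 (chr5:147400490-147400739, minus strand). Capitals mark letters of the GATA motif, searched on both strands as AGATAA or AGATAG or TGATAA or TGATAG, since GATA factors bind such letters in blood cells.
Kit: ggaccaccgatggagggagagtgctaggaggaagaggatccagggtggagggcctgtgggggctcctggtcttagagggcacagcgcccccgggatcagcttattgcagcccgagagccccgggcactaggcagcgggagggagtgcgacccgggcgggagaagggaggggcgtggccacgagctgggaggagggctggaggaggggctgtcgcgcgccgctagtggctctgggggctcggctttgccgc
Cd34: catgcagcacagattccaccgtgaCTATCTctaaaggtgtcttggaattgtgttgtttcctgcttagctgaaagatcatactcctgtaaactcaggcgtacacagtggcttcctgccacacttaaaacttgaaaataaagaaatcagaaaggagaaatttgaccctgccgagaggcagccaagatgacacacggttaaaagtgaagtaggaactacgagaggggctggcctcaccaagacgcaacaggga
Procr: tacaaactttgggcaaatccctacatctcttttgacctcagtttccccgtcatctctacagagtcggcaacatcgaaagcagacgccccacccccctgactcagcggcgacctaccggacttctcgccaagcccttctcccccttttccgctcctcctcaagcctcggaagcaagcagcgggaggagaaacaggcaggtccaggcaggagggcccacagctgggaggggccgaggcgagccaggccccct
Flt3: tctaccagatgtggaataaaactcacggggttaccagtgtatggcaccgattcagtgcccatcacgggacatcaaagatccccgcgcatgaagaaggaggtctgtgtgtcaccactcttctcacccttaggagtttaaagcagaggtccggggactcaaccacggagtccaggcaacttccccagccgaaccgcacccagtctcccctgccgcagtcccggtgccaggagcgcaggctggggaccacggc
Of these 4, Cd34 held a match, CTATCT, which begins 226 bases before the start. Of the 8 markers with an entry, 2 held a match at any start site, Cd34 and Slamf1. Counted per start site and not per gene, 26.5% of 32851 promoters of this length held one. Ly6a has no entry in this table. A match in these letters is not evidence of binding, and nothing was measured at these sites.

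Bcor-/- LSK differed from WT LSK in the Fc receptors. Of the 9 markers 4 were called, against 5.77% of genes. Fcgr3 was 6.5-fold higher (log2 fold change 2.70 ± 0.51, SE, adjusted p = 0.0238, 2 against 3 libraries), Fcgr2b 2.64-fold higher (1.40 ± 0.31, adjusted p = 0.0316), Flt3 2.02-fold lower (-1.01 ± 0.21, adjusted p = 0.0272) and Slamf1 2.65-fold lower (-1.40 ± 0.31, adjusted p = 0.0344). For each of the 4 the Bcor-/- and WT libraries did not overlap. Kit (-0.42 ± 0.29), Cd34 (-0.85 ± 0.56), Procr (-0.53 ± 0.49) and Cd48 (-0.61 ± 0.34) had negative estimates that were not called (adjusted p of 0.303 to 0.562), and Ly6a was at -0.17 ± 0.55. These 4 calls were fragile: without Bcor-/- replicate 1 the call of Flt3 was left and without WT replicate 2 those of Fcgr3 and Fcgr2b, while without WT replicate 1, WT replicate 3 or Bcor-/- replicate 2 no marker was called. In those last 3 fits 27 of 11973, 40 of 11975 and 4 of 11979 genes were called at all, so the loss was not particular to the markers. Over all fits with 1 library left out, the log2 fold change of Fcgr3 stayed between 2.38 and 3.10 and that of Flt3 between -1.33 and -0.69.

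Part of the granulocyte and erythroid genes were called higher in the same libraries as the Fc receptors, where 5.77% of all genes were called. Of 8 granulocyte and monocyte genes 4 were called higher in Bcor-/- LSK and none lower, and their summed level was 15863 and 23933 FPKM in the Bcor-/- libraries against 2524 to 8250 in WT, and no gene of the list was at 0 in every library of a group. Mpo, which encodes myeloperoxidase, was at 4710 and 8426 FPKM in Bcor-/- LSK and at 785 to 1532 in WT LSK. Of 10 erythroid genes 5 were called higher and none lower, with summed levels of 221 and 299.5 FPKM against 73.1 to 162 in WT and no gene at 0 in every library of a group. Among them was Klf1, an erythroid transcription factor (2.32 ± 0.42, SE, adjusted p = 0.0214), while Alas2, which encodes the heme synthesis enzyme of red cells, was at 0.04 ± 0.51 (adjusted p = 0.974). These calls were fragile too: without Bcor-/- replicate 2, 3 of 11979 genes were called higher at all, so the 4 and 5 calls could not all hold. The part of these granulocyte and erythroid genes in the result was not tested.

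In Dnmt3a-/- LSK no marker was called and none reached an unadjusted p under 0.05 in limma, where 156 of 11952 genes did and 0% were called. The largest estimate was that of Fcgr3 (-0.47 ± 0.46). Since the study found the Dnmt3a deletion partial in Dnmt3a-/- mice, the absence of calls does not describe full loss. Double knockout and Bcor-/- LSK were also compared directly, as both are labelled Bcor-/-, and 4 of the 9 were called against 25.2% of genes. Cd34 was lower by -4.31 ± 0.61 (SE, adjusted p = 0.00129), Procr by -2.53 ± 0.54 (adjusted p = 0.0084) and Kit by -1.94 ± 0.32 (adjusted p = 0.0026), and Slamf1 was higher by 1.27 ± 0.34 (adjusted p = 0.0231). Flt3 (-0.68 ± 0.23, adjusted p = 0.0505) and Fcgr3 (-1.35 ± 0.56, adjusted p = 0.102) were not called. None of the 9 was called when these genotypes were fitted alone, where the adjusted p was 0.0997 for Cd34 and 0.12 for Kit, with the same fold changes. In that fit 1 of 12017 genes was called, so the loss was not particular to the markers. Slamf1 was low in both groups, at 3.69 and 2.14 FPKM against 0.87 and 0.35. Its call was also lost with all genes kept (adjusted p = 0.0741). With 1 variance per genotype, Slamf1 (adjusted p = 0.254) and Procr (adjusted p = 0.0592) lost their calls, where 929 of 11952 genes were called. Without Bcor-/- replicate 2 the log2 fold change of Slamf1 was 1.03. The comparison shares its double knockout libraries with that against WT, so they are not independent.

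**Figure D4:**
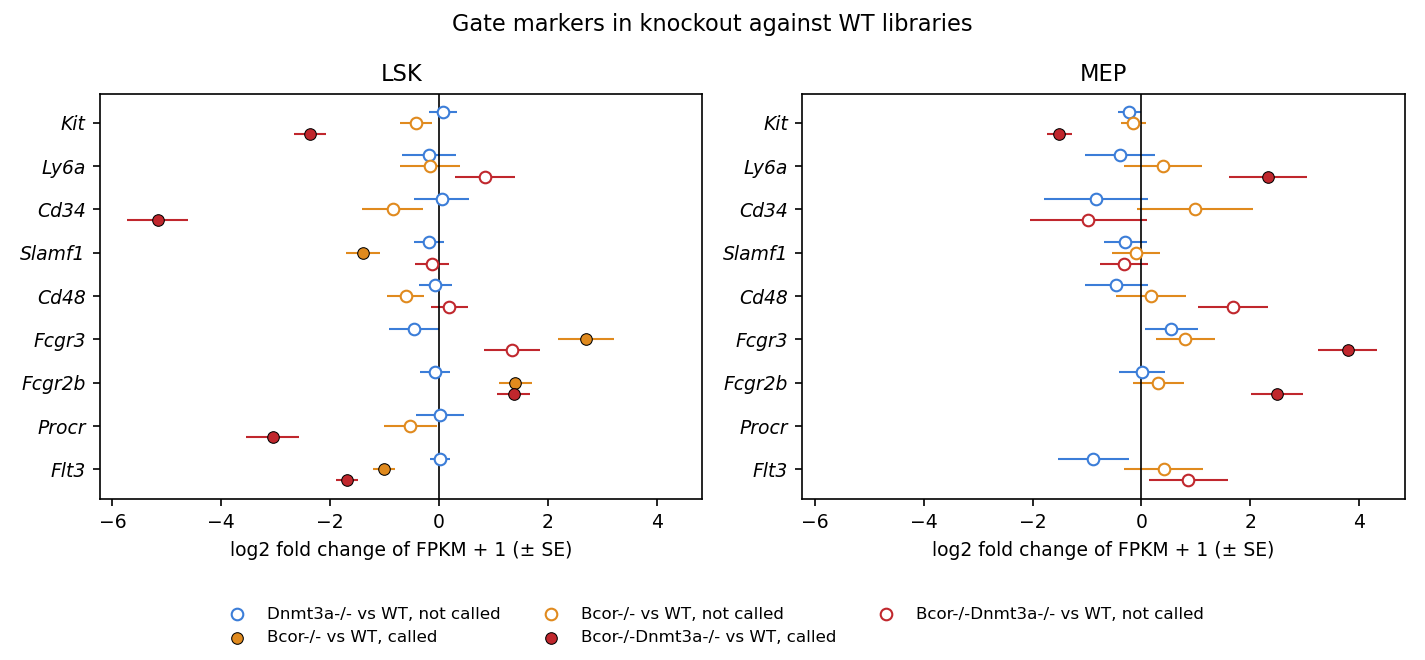
Log2 fold change of FPKM + 1 with its standard error for each marker in the 3 mutant genotypes against WT, in LSK (left) and MEP (right); filled points were called, Procr was not tested in MEP, and Ly6a in MEP passed the filter through the double knockout libraries alone. In LSK Cd34 lies at -5.17 in the double knockout, and in MEP Fcgr3 lies at 3.79.

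In MEP the double knockout libraries carried more RNA of both Fc receptors, which the MEP gate requires to be low, and less Kit. Of the 7 markers that passed the filter on low values without the double knockout libraries, 3 were called against WT, where 25.2% of 10933 genes were. Here and below, such shares of called genes also hold genes that passed the filter through the double knockout libraries alone. Fcgr3 was 13.8-fold higher (log2 fold change 3.79 ± 0.54, SE, adjusted p = 0.00177, 2 against 3 libraries), Fcgr2b 5.63-fold higher (2.49 ± 0.47, adjusted p = 0.00548) and Kit 2.85-fold lower (-1.51 ± 0.23, adjusted p = 0.00215). For each of these the groups did not overlap. Ly6a, at 17.8 and 1.87 FPKM against at most 0.79 in WT, entered the test through the double knockout libraries alone, so its call is no support and it is given as a level. Cd34, which the gate also excludes, was not higher, with both double knockout libraries inside the WT range. Cd48 (1.68 ± 0.64, adjusted p = 0.0759), Flt3 (0.86 ± 0.73, adjusted p = 0.386), Cd34 (-0.98 ± 1.07, adjusted p = 0.504) and Slamf1 (-0.32 ± 0.44, adjusted p = 0.598) were not called.

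None of these MEP calls held with 1 variance per genotype, where the adjusted p was 0.0797 for Kit, 0.171 for Fcgr3 and 0.246 for Fcgr2b, with the same fold changes. Under that setting 48 of 10933 genes were called, so the loss was not particular to the markers. Cd48 was called with the replicate block (1.74, adjusted p = 0.0314) and without double knockout replicate 2 (2.85, adjusted p = 0.0023), and had an estimate of 0.51 without replicate 1. Against Bcor-/- MEP, 3 markers were called against 20.3% of genes, Kit lower by -1.36 ± 0.25 (adjusted p = 0.00667), Fcgr3 higher by 2.98 ± 0.59 (adjusted p = 0.0095) and Fcgr2b higher by 2.18 ± 0.52 (adjusted p = 0.018). Without Bcor-/- replicate 2 none of the 3 was called (710 of 10975 genes were), and without double knockout replicate 2 there were 5 calls, Ly6a among them, which entered the test through the double knockout libraries alone and is no support.

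In MEP of Bcor-/- and of Dnmt3a-/- no marker was called against WT, where 0.064% and 0% of genes were, and none of the 8 reached an unadjusted p under 0.05 in limma, where 597 and 225 genes did. Cd34 had the widest error, 0.98 ± 1.07 in Bcor-/- and -0.83 ± 0.96 in Dnmt3a-/-. The limit of a partial Dnmt3a deletion holds for Dnmt3a-/- MEP too. For 5 of the 7 markers that reached the mean of 1 FPKM in these libraries, the same 3 MEP libraries were the lowest, as they were for 11.6% of 10466 genes. The 3 were singled out after the values were seen, so this is a description. Of the 8 MEP libraries outside the double knockout, WT replicate 2 and Dnmt3a-/- replicates 2 and 3 were the 3 lowest for Cd34 (4.46 to 6.08 FPKM, the other 5 at 23.9 or above), Flt3 (3.0 to 7.35, the others at 12.8 or above), Cd48 (16.7 to 21.5, the others at 29.6 or above), Slamf1 (1.31 to 1.68, the others at 2.11 or above) and Fcgr2b (1.37 to 1.56, the others at 1.9 or above). The other 4 markers, Kit, Fcgr3, Ly6a and Procr, did not have these 3 libraries as their lowest. The labels name no property that these 3 libraries share.

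Whether the double knockout changed a marker differently in LSK and MEP was tested on the difference between both libraries of each replicate, where a scale of the tables cancels for genes well above 1 FPKM. Of the 9 markers 3 were called, against 20% of 11709 genes. The effect in LSK was below the effect in MEP by -4.19 ± 1.29 for Cd34 (log2 scale, SE, adjusted p = 0.0474), -3.21 ± 0.77 for Procr (adjusted p = 0.0215) and -0.86 ± 0.18 for Kit (adjusted p = 0.0132). Procr was at 0 to 1.44 FPKM in every MEP library, where no fall could be seen, so its value restates the fall in LSK. Flt3 (-2.55 ± 0.89, adjusted p = 0.0681), Fcgr3 (-2.44 ± 0.89, adjusted p = 0.0766) and Cd48 (-1.49 ± 0.58, adjusted p = 0.0939) pointed the same way without a call. Without double knockout replicate 1, or without WT replicate 1, the call of Kit alone was left (3777 of 11575 and 902 of 11718 genes were called). Without WT replicate 2 the call of Cd34 was lost (906 of 11726 genes), and without double knockout replicate 2 there were 5 calls (3805 of 11566 genes). For the same contrast of Bcor-/- and Dnmt3a-/- no marker was called, where 0.145% and 0% of genes were, and in limma 1 and 0 markers and 2148 and 431 genes had an unadjusted p under 0.05.

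Other surface proteins of stem and progenitor cells were followed as a list of 17 genes. In double knockout against WT LSK 4 were called higher and 9 lower, where 23.7% of all genes were called, with a median log2 fold change of -1.34 against 0.02 over all genes. Among the lower ones was Cd27, a receptor of the TNF family (-2.93 ± 0.39, SE, adjusted p = 0.000731), and the highest were the interleukin-7 receptor gene Il7r (4.18 ± 0.62, adjusted p = 0.00127) and Tfrc (2.33 ± 0.15, adjusted p = 3.52e-05). In Bcor-/- LSK 1 was called higher and 2 lower (5.77% of all genes were called), in double knockout MEP 3 of 16 higher and 3 lower (25.2% of all genes), and in Bcor-/- MEP none (0.064%).

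Relatives and partners of the gate markers formed a list of 16 genes (SLAM, Ly6 and Fc receptor families, the ligands, and the sialomucins Podxl and Emcn), of which 14 passed the filter in LSK without the double knockout libraries. In double knockout LSK 8 of these were called higher and 1 lower, where 23.7% of all genes were called, with a median of 1.22, the highest being the SLAM-family gene Slamf6 (4.53 ± 0.59, adjusted p = 0.000638) and Ly6d (3.81 ± 1.14, adjusted p = 0.0341), and the lower one Emcn (-3.32 ± 0.34, adjusted p = 0.000195). In double knockout MEP 6 of the 11 that passed without the double knockout libraries were called higher and none lower, against 25.2% of all genes.

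Markers of other cells differed in the same double knockout libraries. In double knockout LSK, where 23.7% of all genes were called, 10 of 10 erythroid genes were called higher, with a summed level of 5485 and 20659 FPKM against 73.1 to 162 in WT. The globin genes Hbb-b1 (7.54 ± 0.68) and Hba-a1 (7.41 ± 0.67) rose most. The lineage antigens, which the Lin- gate excludes, summed to 422 and 514 FPKM against 20.2 to 44.2 in WT, and of the 4 that passed the filter without the double knockout libraries 3 were called higher. Cd3e, a subunit of the T cell receptor complex, entered the test through the double knockout libraries alone and is given as a level, 8.03 and 20.4 FPKM (0 to 0.52 in WT). Of 5 B lymphoid genes that passed without the double knockout libraries 3 were called higher and 1 lower, and of the T lymphoid genes 1 passed in this way and was called higher. Of 7 megakaryocyte genes 5 were called lower, of 8 granulocyte and monocyte genes 1 lower, of 3 tested mast cell genes 3 lower, and of 4 macrophage genes and 1 endothelial gene none. The macrophage sum lay at 30.6 and 971 FPKM in double knockout LSK against 25.4 to 200 in WT. The part of other cells in the marker changes was not tested.

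In double knockout MEP the erythroid sum was 3756 and 67127 FPKM against 1169 to 1851 in WT. Of 10 erythroid genes 3 were called higher and none lower, where 25.2% of all genes were called. Hba-a1 alone was at 1055 and 55204 FPKM, most of the larger sum. Klf1 was at 70.9 and 219 FPKM against 144 to 192 in WT, and Ermap at 93.6 and 374 against 225 to 281. The B lymphoid sum was 123 and 1813 FPKM against 94.0 to 182, and the macrophage sum 6.47 and 524 against 1.46 to 2.58. Of 8 granulocyte and monocyte genes 3 were called higher and none lower, against 25.2% of all genes called. The granulocyte and monocyte sum was 3256 and 7181 FPKM in double knockout MEP against 151 to 491 in WT, of which S100a8 alone made up 2988 and 6713, and Mpo, at 55.1 and 121 FPKM, overlapped its WT range of 10.8 to 96.1. These values stand beside those of Fcgr3 and Fcgr2b, and their part in them was not tested.

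For each marker the most similar genes were taken by Pearson r of log2(FPKM + 1) over 10 libraries, separately for LSK and MEP, as a description in which the double knockout libraries weigh most. In LSK Procr was most like Nkx2-3 (r = 0.997) and Cd27 (0.990), Cd34 most like Rab38, Dapp1 and Adgrl4 (each 0.997), and Kit most like Zfp422 (0.996). In MEP Cd34 was most like Adgrl4 (0.982) and Hlf (0.981), so that Adgrl4 stood among the nearest of Cd34 in both cell types. Ly6a in LSK had its nearest gene at r = 0.948 (Trim7) and Slamf1 at 0.941 (Ap1s3).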

How the data were processed

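PolyA RNA of sorted LSK and MEP bone marrow cells was sequenced in 20 libraries of 4 genotypes. The authors deposited FPKM values in 2 tables, LSK and MEP, each listing 24315 genes in 10 libraries. The submitters' processing notes list STAR 2.5.1b, SAMtools 1.9, Cufflinks 2.2.1 and the build mm9 without their roles, and the annotation, the strand setting and the scaling between libraries are not given in the sources used here. Read counts are not given, so depth and counting error are unknown. From the commonest ratio of values under 0.2 FPKM, relative depth, with WT replicate 1 of a table as 1, was 0.79 to 1.32 for LSK and up to 1.60 for MEP. An FPKM of 0 can be a failed estimate: Hbb-b1 is listed at 0 in the double knockout MEP library with 55204 FPKM of Hba-a1. In GENCODE vM21, from which shared 50-base words were counted, Cd34, Fcgr2b and Flt3 overlap an antisense gene, Cd48 and Fcgr3 overlap another transcript on their strand, and their reads cannot be told apart here.

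Groups, replicates and the pairing of LSK with MEP libraries come from the labels. Nothing in the labels states separate litters or days. Genes averaging 1 FPKM or more in a table were kept, log2(FPKM + 1) was modelled with 1 mean per genotype, and limma 3.58.1 in R 4.3.3 gave moderated tests with a mean-variance trend and Benjamini-Hochberg adjustment over all tested genes. The study's methods use p under 0.05 and a fold change above 1.5 and name no adjustment, so the unadjusted p is an alternative. The same model on the LSK minus MEP difference tested effects between cell types. Ratios to Kit were tested with two-sided exact sign-flip tests in Python 3.11.15 with numpy 2.4.6. With 2 against 3 libraries an exact permutation test cannot go below 0.1. The limma comparison of double knockout with WT was tested on simulated data, in which all libraries had the spread of the other genotypes. Real double knockout replicates correlated less than others, so that simulation does not cover their wider spread. The markers and lists were chosen with earlier results of these data known. The 9 markers are given in every library, of other lists at most the 2 largest called changes per direction in double knockout LSK are named besides check genes fixed by name, and the most similar genes, up to 3, are taken by r. Some genes that these rules name are not reported here.

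Alternatives were a pseudocount of 0.1 FPKM, all genes kept, a filter at 5 FPKM, quantile normalization, median centring, a fit of the compared genotypes alone, the replicate number as a block, no trend, 1 variance per genotype, the unadjusted p, a fold change above 2, and each library left out, and for the Kit ratio percentile ranks, the median gene, an unpaired test and, added after seeing the data, the 8 replicates outside the double knockout. Same-numbered libraries of different genotypes deviated together at r of -0.06 to 0.09 in LSK and -0.19 to 0.34 in MEP.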

Additional observations from a re-analysis of the deposited data

Results flagged for a closer look

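Limma's test of the double knockout effect in LSK against that in MEP called 3 markers, of which Procr cannot show a different effect in MEP, since it lay at the floor there in each group. On the log2 scale the LSK effect minus the MEP effect was -4.19 for Cd34, -3.21 for Procr and -0.858 for Kit. In each case both double knockout LSK libraries lay below all WT LSK libraries. In MEP Cd34 overlapped WT and Kit was lower than WT too. No group has 4 or more libraries, and no library was tested as standing apart from its group.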

How the results depend on the processing

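Of 189 alternative counts of called markers 166 stayed within 1.5 times the reported count, and 23 moved. Of 832 values of single markers 715 kept their direction and side of the threshold, 83 lost and 29 gained a call, and 5 changed direction, each of a marker without a call. With 1 library left out, the log2 fold changes in double knockout LSK against WT ran from -0.042 to 1.74 for Ly6a, -0.42 to 0.16 for Slamf1 and -0.43 to 0.81 for Cd48, that of Ly6a in Bcor-/- LSK from -1.05 to 0.71, and that of Slamf1 in double knockout MEP from -1.03 to 0.38. In LSK of Bcor-/- against WT the 4 calls became 0 without the filter and 2 with the replicate block, and 0 to 2 with 1 library left out. Double knockout against Bcor-/- in LSK went from 4 to 0 with the compared genotypes alone and to 2 with 1 variance per genotype (3 to 6 with 1 library left out). In MEP double knockout against WT went from 4, Ly6a included, to 0 with 1 variance per genotype (3 to 5 with 1 library left out), and against Bcor-/- from 3 to 0 with that setting and with the compared genotypes alone (0 to 5 with 1 library left out). The 3 calls between cell types became 1 with a pseudocount of 0.1 FPKM, 0 with the compared genotypes alone, 0 with 1 variance per genotype and 6 with the unadjusted p (1 to 5 with 1 library left out), and for Bcor-/- 0 became 1 with the unadjusted p. Of the 6 markers whose Kit ratio could be tested, 6 passed, and 3 (Cd34, Fcgr2b and Flt3) without pairing of the LSK and MEP libraries, where Ly6a and Procr, which are descriptions, would bring the count to 5. Leaving out both double knockout mice, an alternative chosen after seeing the data, left 6. Where no value explains a move, the cause was not tested. Median centring and quantile normalization moved calls of all genes toward lower ones: in double knockout LSK from 1473 higher and 1363 lower to 1250 and 1675, and to 1229 and 1773, and in double knockout MEP from 1546 and 1205 to 1190 and 1977, and to 1115 and 2191, where the median log2 fold change of all genes became -0.14 and -0.18. None of the marker values recomputed under these 2 settings changed direction. Same-numbered libraries of different genotypes correlated over 0.1 in 0 of 13 pairs in LSK and in 8 of 13 in MEP, short of every pair, so the number was not used to pair them.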
